A study of Mus musculus with 16 samples.

Results

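The genes described here are 48 genes of ribosome biogenesis, listed by gene symbol for their known roles, among 18193 genes tested on arrays of mouse embryo heads. Of the 48, 46 were measured by a probe set that names the gene alone. Npm3 and Mrto4 were not analysed here. A probe set is the group of short probes that reports on one transcript, and each gene was represented by its brightest probe set, the one with the highest mean log2 intensity over all arrays, with its other probe sets kept as a check. The 46 genes fell into 5 steps: RNA polymerase I and its factors (6 genes), proteins of small nucleolar ribonucleoproteins, or snoRNPs (9 genes), nucleolar chaperones and factors acting at several steps (3 genes), small subunit assembly (12 genes) and large subunit assembly (16 genes).

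Embryos were taken on embryonic day 9.5 (E9.5), E11.5 or E13.5, and their total RNA was measured on 6, 4 and 6 arrays, called biological replicates by the submitters. The sample titles name the embryo head, the series title names the brain, and the source labels name only embryonic tissue. The sources used here give no strain, genotype, sex or pooling of embryos. All RNA was prepared with the same lipid tissue kit, but labelling used a one-cycle Affymetrix kit at E9.5 and E11.5 and an Ambion amplification kit at E13.5, so that stage and labelling kit cannot be told apart in either comparison with E13.5.

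Ribosomes are built in the nucleolus. RNA polymerase I transcribes a long precursor of the ribosomal RNAs, snoRNPs modify and help cut it, and assembly factors fold it with ribosomal proteins into the small and the large subunit, which mature separately and leave for the cytoplasm. Growing and dividing cells, such as the progenitors of the early neural tube, make many ribosomes.

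From E9.5 to E11.5 transcripts of ribosome biogenesis fell at every step. Of the 46 genes, 41 were lower at E11.5 at an adjusted p under 0.05, 3 were higher (Ubtf, Rrn3 and Nop10), and 2 did not pass the test (Rrp9 and Rrs1). In the same test 26.9% of all 18193 genes were called lower and 31.0% higher. The median log2 difference of the 46 genes was -1.10, against 0.02 over all genes tested, and 27 of them fell at least 2-fold, as did 4.79% of all genes. For the 41 genes that fell, every E11.5 array lay below every E9.5 array, which held for 17.8% of all genes. The 3 genes that rose had every E11.5 array above every E9.5 array, which held for 19.9% of all genes. In bulk tissue such as this, fewer cells of a type and less RNA per cell cannot be told apart.

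The medians of the 5 steps lay close together. All 12 small subunit genes fell (median log2 difference -0.97), as did 15 of 16 large subunit genes (median -1.10), 7 of 9 snoRNP genes (median -1.06), all 3 chaperones and multi-step factors (median -1.16) and 4 of 6 polymerase I genes (median -1.28). No difference between steps was tested.

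**Figure D1:**
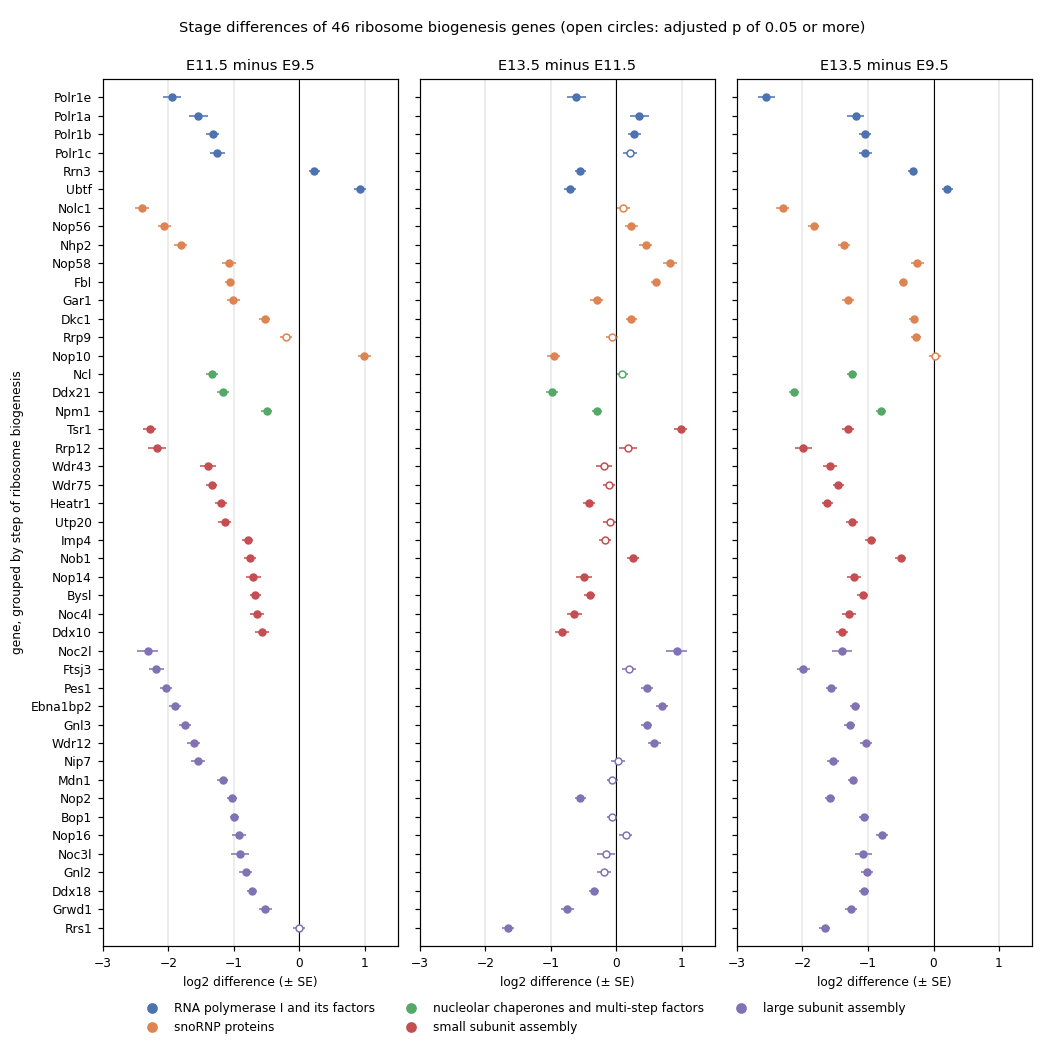
Log2 differences (± SE) of the 46 measured genes between stages, grouped by step in the order polymerase I, snoRNP, chaperones, small subunit and large subunit; filled circles have an adjusted p under 0.05. In the left panel 41 genes lie below 0 and called, in the middle panel the genes lie on both sides of 0, and in the right panel 44 are called lower.

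Of the 6 polymerase I genes, the 4 genes of subunits fell from E9.5 to E11.5, and Ubtf and Rrn3 rose on their brightest probe sets. Polr1e, a subunit of the enzyme, had log2 intensities from 7.73 to 8.41 at E9.5 (median 7.80), of 5.61, 6.13, 5.86 and 6.23 on the E11.5 arrays, and from 4.95 to 5.52 at E13.5 (median 5.43). The 3 stages did not overlap, and each later stage was lower. Polr1e fell by 1.94 ± 0.14 (SE) on the log2 scale from E9.5 to E11.5 (adjusted p = 4.9e-10) and by 0.61 ± 0.14 from E11.5 to E13.5 (adjusted p = 0.00104). Polr1a encodes the largest subunit. Its values were 8.30 to 8.86 at E9.5, with a median of 8.44, then 7.53, 7.06, 6.57 and 6.79 at E11.5, and 7.21 to 7.43 at E13.5, with a median of 7.34. The E11.5 arrays were below all E9.5 arrays, spread wider than either other stage, and overlapped the E13.5 arrays. Its first change was -1.54 ± 0.14 (adjusted p = 1.2e-08). Polr1b, the second-largest subunit, changed by -1.32 and Polr1c, a subunit shared with RNA polymerase III, by -1.25.

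Ubtf, which binds the promoter of the ribosomal RNA genes, lay between 8.36 and 8.79 at E9.5 (median 8.58), at 9.60, 9.41, 9.70 and 9.34 on the E11.5 arrays, and between 8.70 and 8.92 at E13.5 (median 8.80). The E11.5 arrays were above all others. It rose by 0.93 ± 0.09 from E9.5 to E11.5 (adjusted p = 3.5e-08) and fell by 0.71 ± 0.09 from E11.5 to E13.5 (adjusted p = 1.3e-06). Its other, dimmer probe set went the opposite way in the first interval, with -0.80 ± 0.14 (adjusted p = 5.7e-05), so the direction for Ubtf depends on which probe set is read. Rrn3, which links the polymerase to the promoter, lay between 8.84 and 9.04 at E9.5 (median 8.99), at 9.07, 9.13, 9.23 and 9.35 at E11.5, and between 8.49 and 8.74 at E13.5 (median 8.65). The E11.5 arrays were the highest, by a narrow margin over E9.5. Rrn3 rose by 0.23 ± 0.08 (adjusted p = 0.0144), a call that was lost without E11.5 sample 52 (0.18, adjusted p = 0.0652) and with each array centred on its median (0.16, adjusted p = 0.0924). It then fell by 0.55 ± 0.08 (adjusted p = 4.8e-06), and has a single probe set.

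snoRNPs come in 2 classes, box C/D particles that methylate ribosomal RNA and box H/ACA particles that convert uridine to pseudouridine. Nolc1, a chaperone that binds both classes, showed the steepest first-interval fall of the 46 genes. It lay between 9.66 and 10.17 at E9.5 (median 9.98), at 7.64, 7.53, 7.19 and 7.74 at E11.5, and between 7.52 and 7.70 at E13.5 (median 7.62). The E9.5 arrays stood above all others, and the E11.5 and E13.5 arrays overlapped. Nolc1 fell by 2.40 ± 0.11 (adjusted p = 7.8e-13), which is 5.28-fold, and its change from E11.5 to E13.5 was 0.10 ± 0.11 (adjusted p = 0.475). All 3 of its probe sets fell in the first interval. In the second interval its second-brightest set fell by 0.50 (adjusted p = 0.0014) and its dimmest did not pass the test (0.22).

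On their brightest probe sets the core box C/D genes fell and then rose in part, the rise lying in the interval where the labelling kit also changed. Nop56 lay between 10.99 and 11.57 at E9.5 (median 11.28), at 9.29, 9.24, 9.06 and 9.28 at E11.5, and between 9.39 and 9.51 at E13.5 (median 9.46). The stages did not overlap, and E9.5 was far above both others. It fell by 2.06 ± 0.10 (adjusted p = 1.3e-12), then rose by 0.23 ± 0.10 (adjusted p = 0.0494), a rise that was lost when any of 12 single arrays was left out (adjusted p from 0.053 to 0.155). The second probe set of Nop56 fell by 0.90 and then rose by 0.53 (adjusted p = 6.2e-05). Nop58 lay between 9.33 and 10.02 at E9.5 (median 9.86), at 8.75, 8.70, 8.57 and 8.83 at E11.5, and between 9.41 and 9.60 at E13.5 (median 9.57). All E11.5 arrays were below both other stages, and E9.5 overlapped E13.5. There is a single probe set for this gene. Nop58 fell by 1.07 ± 0.11 (adjusted p = 6.4e-08) and rose by 0.82 ± 0.11 (adjusted p = 2.5e-06), regaining 76.5% of its log2 fall, the highest share among the 14 genes that fell and then rose. Fbl, the methyltransferase of these particles, changed by -1.06 and then by 0.60, while its second probe set fell by 0.48 and then stayed at -0.00. Rrp9, which belongs to the U3 particle needed for the first cuts, was one of the 2 genes not called in the first interval (-0.20 ± 0.09, adjusted p = 0.0768). Its values were 7.99 to 8.36 at E9.5 (median 8.18), 8.06, 7.84, 7.94 and 8.11 at E11.5 and 7.79 to 8.09 at E13.5 (median 7.93), and all 3 stages overlapped.

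Of the H/ACA genes, Nhp2 and Gar1 fell in the first interval, by 1.81 ± 0.10 (adjusted p = 1.1e-11) and 1.01 ± 0.10 (adjusted p = 1.9e-08). Dkc1, the pseudouridine synthase, fell by 0.53 on its brightest probe set and by 1.55 on its dimmest, but the one between them was called higher (0.35, adjusted p = 0.0021) and then fell by 2.20. Nop10, the smallest core protein, went the other way. It lay between 10.93 and 11.41 at E9.5 (median 11.14), at 12.19, 12.12, 12.25 and 12.03 at E11.5, and between 11.04 and 11.39 at E13.5 (median 11.17). The E11.5 arrays were above all others, and E9.5 and E13.5 overlapped. Nop10 rose by 0.99 ± 0.10 (adjusted p = 4.1e-08), then fell by 0.96 ± 0.10 (adjusted p = 5.7e-08). Its other probe set did not pass the test in the first interval (0.06, adjusted p = 0.65) and fell by 0.30 in the second.

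The chaperones and multi-step factors all fell. Nucleolin (Ncl), an abundant RNA-binding protein of the nucleolus, lay between 12.06 and 12.48 at E9.5 (median 12.28), at 10.86, 11.07, 10.83 and 11.04 at E11.5, and between 10.92 and 11.10 at E13.5 (median 11.05). E9.5 stood apart, and the later stages overlapped. It fell by 1.33 ± 0.09 (adjusted p = 8.8e-11), and all 5 of its probe sets fell, by 0.77 to 2.73. In the second interval its sets were split: the brightest did not pass the test (0.09), and others were called lower (-0.38 and -0.74) or higher (0.73). Ddx21, an RNA helicase, went down in both intervals. Its arrays averaged 9.83 ± 0.13 (SD, n = 6) at E9.5 (median 9.84), at 8.62, 8.87, 8.61 and 8.58 at E11.5, and between 7.53 and 7.80 at E13.5 (median 7.70), with no overlap between stages. Ddx21 changed by -1.16 ± 0.09 (adjusted p = 7.5e-10) and by -0.98 ± 0.09 (adjusted p = 9.1e-09). Nucleophosmin (Npm1) changed by -0.50 and -0.30, and its other probe set by -1.28 and then 0.45.

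**Figure D2:**
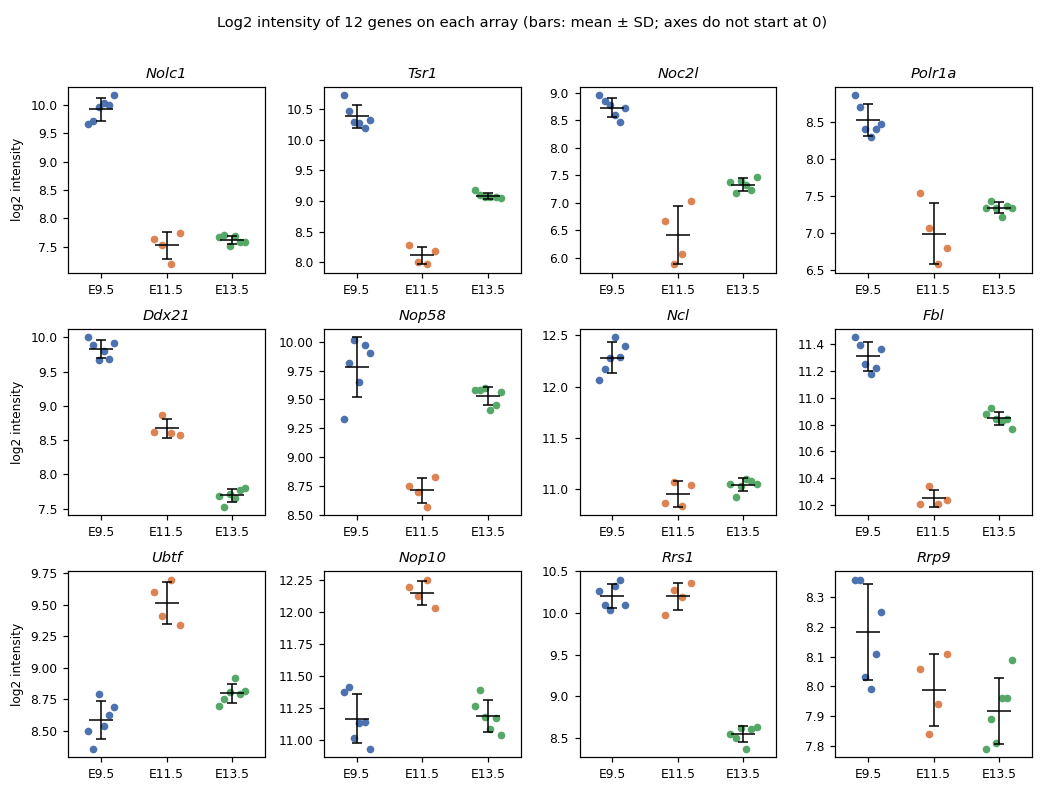
Log2 intensity of 12 genes on each of the 16 arrays, with the mean ± SD of each stage as black bars; the vertical axes differ between genes and do not start at 0. Nolc1, Tsr1 and Noc2l drop from E9.5 to E11.5, Ubtf and Nop10 peak at E11.5, and Rrs1 is lower only on the E13.5 arrays.

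Small subunit assembly starts on the growing precursor. The early factors Heatr1, Wdr43 and Wdr75 changed by -1.20, -1.39 and -1.34 from E9.5 to E11.5, and Utp20 and Imp4 by -1.14 and -0.79. Tsr1, a late factor of the small subunit, showed the steepest fall of this step. It lay between 10.20 and 10.73 at E9.5 (median 10.31), at 8.28, 8.01, 7.97 and 8.18 at E11.5, and between 9.05 and 9.18 at E13.5 (median 9.07). The 3 stages did not overlap, with E13.5 in the middle. Tsr1 fell by 2.28 ± 0.10 (adjusted p = 2.5e-13) and then rose by 0.98 ± 0.10 (adjusted p = 3e-08). Its second probe set fell by 1.17 in the first interval and by a further 0.56 (adjusted p = 8.4e-05) in the second, so the later rise was read from the brightest probe set alone.

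Rrp12, another factor of this step, lay between 7.43 and 7.81 at E9.5 (median 7.68), at 5.78, 5.32, 4.95 and 5.83 at E11.5, and between 5.39 and 5.81 at E13.5 (median 5.74). E9.5 was apart and the later stages overlapped; the fall was 2.17 ± 0.14 (adjusted p = 1.1e-10). Nob1, the endonuclease that makes the last cut of the small subunit RNA, changed by -0.75 and then by 0.25. The call of that rise was lost with each array centred on its median (0.18, adjusted p = 0.0726). Ddx10, an RNA helicase, showed the largest second-interval fall of the step, -0.83 ± 0.10 (adjusted p = 7.2e-07), after -0.57 ± 0.10 (adjusted p = 6.7e-05).

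In large subunit assembly, Pes1, Bop1 and Wdr12 form one complex, and their transcripts changed by -2.03, -0.99 and -1.61. Pes1 lay between 9.27 and 9.71 at E9.5 (median 9.54), at 7.55, 7.65, 7.29 and 7.50 at E11.5, and between 7.89 and 8.03 at E13.5 (median 7.97), with no overlap between stages. Its second, dimmer probe set was flat in the first interval (-0.00, adjusted p = 1) and fell by 1.40 (adjusted p = 5.4e-09) in the second, where the brightest one rose by 0.47. Noc2l, whose yeast counterpart accompanies large subunit precursors out of the nucleolus, lay between 8.46 and 8.95 at E9.5 (median 8.75), at 6.67, 5.88, 6.07 and 7.03 at E11.5, and between 7.17 and 7.47 at E13.5 (median 7.35). The stages did not overlap, and the E11.5 arrays spread the widest. Noc2l fell by 2.31 ± 0.16 (adjusted p = 2.7e-10) and rose by 0.92 ± 0.16 (adjusted p = 7.1e-05), while its second probe set passed the test in neither interval (-0.02 and -0.19).

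Ftsj3, an RNA methyltransferase, lay between 8.32 and 8.63 at E9.5 (median 8.50), at 6.11, 6.19, 6.17 and 6.75 at E11.5, and between 6.34 and 6.63 at E13.5 (median 6.52). E9.5 stood apart. It fell by 2.18 ± 0.11 (adjusted p = 5e-12). Mdn1, a large ATPase that strips factors from the particle, changed by -1.17, although a dim probe set of the same gene was called higher (0.71, adjusted p = 0.00036). Gnl3 and Gnl2, a pair of nucleolar GTPases, changed by -1.74 and -0.82, and Ebna1bp2 by -1.90.

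Rrs1, which brings the 5S particle to the large subunit, was the gene of this step that did not fall first. It lay between 10.04 and 10.40 at E9.5 (median 10.18), at 9.97, 10.27, 10.19 and 10.36 at E11.5, and between 8.37 and 8.63 at E13.5 (median 8.58). E9.5 and E11.5 overlapped, and every E13.5 array was below both. Its change was -0.01 ± 0.09 (adjusted p = 0.966) and then -1.65 ± 0.09 (adjusted p = 1.1e-11), the largest second-interval change of the 46 genes. The brightest probe set of Rrs1 carries the suffix by which the manufacturer marks sets whose probes may match other transcripts. The brightest sets of Polr1c, Fbl, Nop56, Gar1, Nhp2, Wdr43 and Tsr1 carry another suffix, for probes shared with further transcripts. The other probe set of Rrs1 fell in both intervals, by 0.42 (adjusted p = 0.0018) and 0.74 (adjusted p = 4.6e-06).

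From E11.5 to E13.5 the genes no longer moved together. Of the 46, 16 were called lower, 14 higher and 16 did not pass the test, with a median log2 difference of -0.07. Over all genes 27.0% were called lower and 27.9% higher, so these shares are near the background. The arrays did not overlap for 14 lower and 11 higher genes, against 20.7% and 22.3% of all genes. With each array centred on its median the split was 18 lower and 9 higher, and the share of lower among the called members went from 53.3% to 66.7%, while that among all called genes went from 49.2% to 58%. With the prefix in the E13.5 titles as a random block (consensus correlation 0.601), 9 were higher. The rises of Polr1a, Polr1b, Nop56, Dkc1 and Nob1 lost their calls there (adjusted p from 0.0823 to 0.145). So did the fall of Gar1 (adjusted p = 0.0533).

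By step, 5 of 9 snoRNP genes and 5 of 16 large subunit genes rose in the second interval, as did 2 of 12 small subunit genes, 2 of 6 polymerase I genes and 0 of 3 chaperones and multi-step factors. The share over all genes was 27.9%, and no difference between steps was tested. Combining both intervals, 14 genes fell and then rose, 12 fell in both intervals, 15 fell and were then not called, and 3 rose and then fell. Over all genes the first 3 of these courses held for 11.0%, 5.69% and 10.1%, and the share for the last was not counted. These shares also contain the first-interval fall itself. Of the 4887 genes that fell first, 2009 then rose, 1035 fell again and 1843 were not called. For the 41 members that fell first the split was 14, 12 and 15. Of the 3 genes that rose and then fell, Ubtf and Nop10 have another probe set that did not rise first (-0.80 and 0.06). The 14 genes that rose again regained from 11.3% (Nop56) to 76.5% (Nop58) of their log2 fall, and all 14 were still called lower at E13.5 than at E9.5, although for Nop58 (-0.25, adjusted p = 0.0325) that call was lost when any of 6 single arrays was left out. It was also lost with the title prefix as a random block (adjusted p = 0.115). The later rises of Polr1a, Polr1b and Dkc1 were also lost when single arrays were left out, 8, 6 and 2 of 16 arrays, with adjusted p up to 0.207.

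The change of the first interval was tested directly against that of the second. It was more negative for 34 of the 46 genes and more positive for 4 (Ubtf, Rrn3, Nop10 and Rrs1), with 8 not called. Over all genes 26.3% were more negative and 27.0% more positive. The largest difference between the intervals was that of Tsr1 (-3.26 ± 0.17, adjusted p = 1.2e-11), followed by Noc2l (-3.23 ± 0.29, adjusted p = 1.8e-08). Both were read from the brightest probe set. The second sets changed by -1.17 and then -0.56 (Tsr1) and by -0.02 and then -0.19 (Noc2l). Ubtf has another set that fell in both intervals (-0.80 and -0.38). This contrast uses the E13.5 arrays, so the change of labelling kit enters it as well.

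Between E9.5 and E13.5, 44 of the 46 genes were lower, 1 was higher (Ubtf, 0.21 ± 0.08, adjusted p = 0.0291) and 1 was not called (Nop10, 0.02). Over all genes 29.1% were lower and 32.7% higher. The median log2 difference was -1.23, and 35 genes were lower at least 2-fold, as were 7.08% of all genes. All arrays of one stage lay on one side of the other for 42 lower and 0 higher genes, against 20.9% and 23.9% of all genes. Polr1e (-2.55 ± 0.13, adjusted p = 4e-13) and Nolc1 (-2.30 ± 0.10, adjusted p = 3.4e-14) were the furthest below their E9.5 level. The median over all genes was itself 0.15 higher at E13.5 than at E9.5; centring each array on its median moved the share of lower among all called genes from 47.2% to 62.6%, and among the members left 44 lower and 0 higher. The call for Ubtf was lost there and when any of 5 single arrays was left out (adjusted p up to 0.0752).

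The other probe sets were read as a check on these counts. Of the 46 genes, 34 have at least 1 other probe set, 52 in all. From E9.5 to E11.5, 40 of the 52 fell, 2 rose and 10 did not pass the test. Over all genes, read from their brightest sets, 26.9% were called lower and 31.0% higher. Shares over all probe sets were not counted, for this or the later comparisons. Of the 41 genes that fell, 31 have another probe set, and for 28 of these at least 1 other set also fell. The exceptions were Heatr1, Pes1 and Noc2l, whose other sets did not pass the test. By a stricter count, every probe set fell for 21 of the 34 genes. Among the 28, Dkc1 and Mdn1 each also have a set that rose. From E11.5 to E13.5 agreement was partial: of the 14 genes that rose, 10 have another probe set, for 3 of these another set also rose (Nop56, Dkc1 and Ebna1bp2), and for Dkc1, Tsr1 and Pes1 another set fell. Of the 16 genes that fell in that interval, 12 have another probe set, for 9 of these another set also fell, and for Npm1, Heatr1 and Ddx18 another set rose. For E13.5 against E9.5, 44 of the 52 other sets were lower and 0 higher. The difference in agreement between intervals was not tested.

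Other genes of the same pathway, listed by role and outside the 48, moved in the same direction. Of 126 measured, 108 fell from E9.5 to E11.5, 7 rose and 11 did not pass the test, with a median log2 difference of -0.72. Over all genes 26.9% were called lower and 31.0% higher. By role, 8 of 8 other snoRNP genes fell, as did 40 of 44 other small subunit genes, 36 of 41 other large subunit genes, 20 of 25 genes of nucleases and the exosome, and 6 of 10 other polymerase I genes; Nop53 and Rrp1b, which both fell, stand in 2 of these lists each. Ddx27 (-2.51 ± 0.11, adjusted p = 4.2e-13) and Wdr46 (-2.23 ± 0.12, adjusted p = 5.3e-12), assembly factors of the large and the small subunit, fell most, and Taf1d, a polymerase I promoter factor, and Ruvbl1, an ATPase used in snoRNP assembly, changed by -1.75 and -1.81. The largest rise was that of Rpf2 (1.24 ± 0.15, adjusted p = 7.7e-07), the partner of Rrs1 in yeast. In the second interval 38 of the 126 fell and 42 rose (30.2% and 33.3%), near the shares over all genes (27.0% and 27.9%).

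Lists of related processes were counted beside them. Over all genes 26.9% were called lower and 31.0% higher in the first interval, and 27.0% and 27.9% in the second. Of 44 measured genes of cytosolic ribosomal proteins, 23 fell and 6 rose from E9.5 to E11.5 (median -0.24), and 6 fell and 28 rose from E11.5 to E13.5 (median 0.28). Of 18 RNA polymerase III genes, 11 fell and 2 rose in the first interval, and 8 fell and 5 rose in the second. DNA replication genes fell in both intervals, 36 of 43 (median -0.64) and then 28 of 43 (median -0.50). Myc, a transcription factor known to drive ribosome biogenesis genes, fell by 2.10 ± 0.12 (adjusted p = 1.1e-11) and rose by 1.63 ± 0.12 (adjusted p = 3.4e-10), whereas Mycn fell in both intervals, by 0.35 and 1.81. Mycl passed the test in neither interval, and Max rose in the second (1.07 ± 0.13, adjusted p = 4.6e-07).

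**Figure D3:**
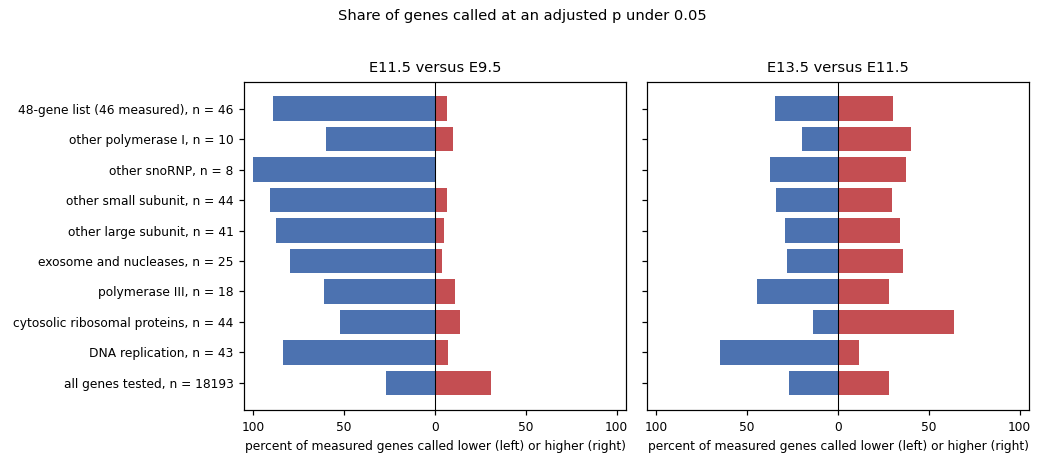
Percent of measured genes called lower (blue, to the left) or higher (red, to the right) at an adjusted p under 0.05 in each list, for E11.5 versus E9.5 and E13.5 versus E11.5; n is the number of measured genes. The 46 genes and the other pathway lists lean to lower in the left panel (89.1% of the 46 against 26.9% of all genes) and are split in the right panel.

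Cell type markers and array controls moved with stage as well. The summed linear intensity of 12 neuron markers was 1148 to 2641 on the E9.5 arrays, 9807 to 11270 at E11.5 and 17562 to 18745 at E13.5. All 12 rose in the first interval, as did 31.0% of all genes. The sum of 10 connective tissue markers went from 3692 to 4801 at E9.5 to 8388 to 8984 at E11.5 and 24782 to 27641 at E13.5, and that of 10 skeletal muscle markers was 216 to 282, 219 to 242 and 5274 to 7372. Sums of 7 brain markers were 3800 to 4521, 3865 to 4644 and 2178 to 2534. The first 2 of these sums hide opposite changes. From E9.5 to E11.5, 3 of the 7 fell, 2 rose and 2 did not pass the test, with log2 differences from -1.68 to 1.66. Sums of 10 surface ectoderm markers were 1159 to 1928, 829 to 905 and 1541 to 1666, and those of 8 endothelial markers 862 to 1095, 748 to 854 and 1149 to 1288. The sum of 9 blood markers was 26311 to 31086, 27847 to 39333 and 13919 to 17311, with Hba-a1 at or under the arrays' lower quartile throughout E9.5 and E13.5. No other listed marker was that dim on all arrays of a stage. Bacterial poly-A transcripts, which are spiked into the RNA before labelling, averaged 8.12 ± 0.25 on the log2 scale on the 6 E9.5 arrays, 5.67 ± 0.15 on the 4 E11.5 arrays and 5.40 ± 0.11 on the 6 E13.5 arrays (mean ± SD), so they also fell most in the first interval (-2.45, two-sided exact permutation p = 0.00476, adjusted p = 0.00794 over the tests of controls). The control probe sets for 18S ribosomal RNA went the other way, with 7.25 ± 0.42, 10.19 ± 0.30 and 10.74 ± 0.16. Hybridisation controls differed by 0.98 in the first interval (exact permutation, adjusted p = 0.022) and by -1.44 in the second (adjusted p = 0.00794). The log2 excess of 3′ over 5′ probe sets, a sign of RNA quality, was 0.82, 0.56 and 0.47 for beta-actin at E9.5, E11.5 and E13.5 (exact permutation, adjusted p = 0.0306 for the first interval and 0.022 for the second). For Gapdh it was 0.18, 0.14 and 0.04 (exact permutation, adjusted p = 0.667 and 0.00794). The part of these controls and markers in the changes of the 46 genes was not tested.

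Some arrays stood to one side of their stage. E9.5 sample 13 held the highest E9.5 value for 21 of the 46 genes, with a median deviation of 0.13 from the stage mean, and E11.5 sample 51 the lowest E11.5 value for 25, with -0.11. E9.5 samples 13 and 15 were known from an earlier analysis to stand apart; without both, 41 genes were lower and 3 higher at E11.5 than at E9.5. Within E13.5, the samples with the title prefixes B62 and B63 gave 3 genes with all B62 arrays above all B63 arrays and 3 with the reverse, and 8.71% of all genes did not overlap between the prefixes.

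Promoter sequences are shown for 6 of the genes, to set beside each other genes that fell steeply (Nolc1, Tsr1, Pes1), one that fell in both intervals (Nop2) and a pair that rose first (Rrn3, Nop10). They were picked after the motif search. The windows run from 100 bases before to 30 after the annotated start, on the plus strand, from RefSeq on GRCm38.p6, at chr19:46075747-46075876, chr11:74897980-74898109, chr11:3963875-3964004, chr6:125131783-125131912, chr16:13780599-13780728 and chr2:112261826-112261955 in the order printed. Capitals mark CACGTG, the E-box letters that Myc with Max is known to bind, and CCGGAAG, the letters typical of ETS factors, on either strand (CTTCCGG is the reverse of the second).
Nolc1: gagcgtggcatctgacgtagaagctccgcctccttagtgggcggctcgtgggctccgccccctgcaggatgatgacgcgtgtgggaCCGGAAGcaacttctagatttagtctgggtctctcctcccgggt 
Tsr1: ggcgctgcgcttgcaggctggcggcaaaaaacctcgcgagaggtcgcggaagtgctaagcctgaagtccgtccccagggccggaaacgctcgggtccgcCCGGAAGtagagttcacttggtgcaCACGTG 
Pes1: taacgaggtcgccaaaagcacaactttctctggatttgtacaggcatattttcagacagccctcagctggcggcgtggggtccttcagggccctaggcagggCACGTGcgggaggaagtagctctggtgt 
Nop2: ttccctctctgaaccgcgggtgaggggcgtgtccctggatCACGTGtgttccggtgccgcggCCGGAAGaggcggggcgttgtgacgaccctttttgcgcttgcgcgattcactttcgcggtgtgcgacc 
Rrn3: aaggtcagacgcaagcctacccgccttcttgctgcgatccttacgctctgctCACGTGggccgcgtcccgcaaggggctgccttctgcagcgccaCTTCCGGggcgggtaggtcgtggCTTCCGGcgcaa 
Nop10: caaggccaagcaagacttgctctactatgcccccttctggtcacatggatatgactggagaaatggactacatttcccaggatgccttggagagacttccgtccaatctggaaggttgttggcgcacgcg
Of the 48 genes, 42 have a promoter in the RefSeq table, with windows of 250 bases before to 50 after each start. CACGTG was found in 9 of the 42 (21.4%), against 10.2% of measured genes, and CCGGAAG in 15 of the 42 (35.7%), against 15%. These were 2 of 9 motifs searched on both strands. Shares were also above those of measured genes for CACGCG (33.3% against 16.2%), for the core ETS letters TTCCGG, part of the reverse of CCGGAAG (47.6% against 24.1%), and for the YY1 motif (2.38%, 1 gene, against 1.63%). They were below for the general E-box CANNTG, which includes CACGTG (64.3% against 70.9%), the CCAAT box (31% against 42%), the TATA box as TATAAA (4.76% against 11.5%) and the NRF1 motif (0% against 1.75%). The windows of the members held a median of 23 CpG dinucleotides, against 16 in those of measured genes, and no motif share was adjusted for base composition. The median first-interval change was -1.14 in the 9 with CACGTG and -1.20 in the 31 measured genes without it, and -1.25 with CCGGAAG and -1.14 without. Rrn3, which rose, holds both motifs, and Nop10, which also rose, holds neither in the printed window.

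Another feature not used to choose the genes is that 7 of the 48 (14.6%) hold snoRNA genes within their own span in the RefSeq annotation, against 1.89% of measured genes. They are Nop56 (5 snoRNA genes), Nop58 (4), Wdr43 (3), Gnl3 (3), Ncl (2), Dkc1 (1) and Tsr1 (1). All 7 host genes fell from E9.5 to E11.5, by 0.53 (Dkc1) to 2.28 (Tsr1), as did most of the 46 genes. In the second interval 5 of them were called higher, against 27.9% of all genes and 30.4% of the 46, and Ncl and Wdr43 did not pass the test. Among genes that fell first, as these 7 did, 2009 of 4887 over all genes and 14 of 41 members then rose. Of these 5 calls, those of Nop56 and Dkc1 were lost with single arrays left out, and Dkc1 and Tsr1 each have another probe set that fell.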

How the data were processed

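Biotin-labelled RNA was hybridised to 1-colour short oligonucleotide arrays. The deposited values are probe set intensities on a linear scale, which the authors obtained by RMA, as the submitters' processing notes state, and deposited as whole numbers. The quartiles were 12, 32 and 140 to 141 on every array, so a change is always relative to the rest of the array. There is no read depth, and the number of arrays limits the precision; p-values assume independent arrays.

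The log2 of each value was taken. Of 45101 probe sets, 64 controls, 932 naming several genes and 9160 with no name in the table used were left out; 34945 named 1 gene, giving 18193 genes. The stages were compared in a single limma (3.58.1, R 4.3.3) model of 16 arrays, p-values were adjusted over all genes by Benjamini-Hochberg, and genes were called at an adjusted p under 0.05. The procedure was tested on simulated data. For array controls, two-sided exact permutation tests were run; the control classes were redefined after the first values were seen. Members, gene lists, tests and alternatives were chosen with earlier results of these data known. Genes given with full statistics were, per step, those with the largest changes, those called against the median of their step, those not called from E9.5 to E11.5, and those with a probe set called the opposite way; a part of them is described. The alternatives are listed with their effect in the closing section.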

Additional observations from a re-analysis of the deposited data

Results flagged for a closer look

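A single array stood apart from the others of its stage in 10 of 138 combinations of gene and stage, judged by its gap to the nearest array relative to the range of the stage; chance gives about 1 in 20. E11.5 sample 51 was low for Nhp2 (9.08, nearest other array 9.61), Bop1 (7.77, nearest 8.01) and Nip7 (8.16, nearest 8.60). Also at E11.5, sample 36 was high for Ddx21 (8.87, nearest 8.62) and sample 52 for Ftsj3 (6.75, nearest 6.19). At E9.5, sample 24 was high for Polr1e (8.41, nearest 7.83). Among the E13.5 samples, B63E5K was low for Gar1 (9.05, nearest 9.13) and Wdr75 (7.97, nearest 8.18), and B62E7K was high for Imp4 (7.83, nearest 7.70) and Bysl (8.40, nearest 8.22). All values are log2 intensities.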

How the results depend on the processing

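No paired analysis was possible because no replicate number is shared between the stages. The counts of lower genes at E11.5 than at E9.5 stayed between 36 and 42 under every alternative run (quantile normalization, median centring, the mean or the second-brightest probe set, a filter on dim genes, a floor of 16, fits on just the pair of stages, weighted arrays, a trended and robust variance, the title prefix as a random block, and E9.5 samples 13 and 15 left out). In the second-brightest setting the 12 genes with a single probe set kept that set, and 10 of them were lower in the main fit. The counts and medians of that setting therefore repeat the main result in part. The count of genes higher at E13.5 than at E11.5, 14, was 9 with median centring and 9 with the title prefix block. The count higher at E13.5 than at E9.5, 1, was 0 with quantile normalization, median centring, the mean of probe sets, the second-brightest probe set, the prefix block, and without samples 13 and 15. The median difference was -0.90 (E11.5 minus E9.5) and -0.18 (E13.5 minus E11.5) with the second-brightest probe set, and for E13.5 minus E9.5 -1.38 with median centring and -1.08 with the mean of probe sets.

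With single arrays left out, the counts ranged from 41 to 42 (lower) and 2 to 3 (higher) for E11.5 against E9.5, from 16 to 18 and 11 to 14 for E13.5 against E11.5, and from 43 to 44 and 0 to 1 for E13.5 against E9.5; 32 to 34 genes changed more negatively in the first interval and 4 to 4 more positively. The medians ranged from -1.13 to -1.06, from -0.11 to -0.05 and from -1.25 to -1.2.

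Each alternative was followed for the 28 genes given with full statistics, and signs turned in 18 of their values, all under another choice of probe set. With the second-brightest set, E11.5 minus E9.5 became -0.80 for Ubtf, 0.35 for Dkc1 and 0.71 for Mdn1. E13.5 minus E11.5 became -2.20 for Dkc1, -0.14 for Nhp2, -0.50 for Nolc1, -0.38 for Ncl, -0.56 for Tsr1, -1.40 for Pes1, -0.09 for Wdr12, -0.19 for Noc2l and -0.32 for Ebna1bp2. E13.5 minus E9.5 became -1.18 for Ubtf, -0.24 for Nop10 and 0.22 for Mdn1. With the mean of probe sets, Ubtf became -0.49 for E13.5 minus E9.5, and E13.5 minus E11.5 became -0.55 for Dkc1 and -0.46 for Pes1. Among the other 18 genes, the second-brightest set had the opposite sign, with at least 1 of both sets called, in 8 values: Imp4 (0.14) for E11.5 minus E9.5, Npm1 (0.45), Heatr1 (0.33), Bysl (0.06), Noc3l (0.53), Ddx18 (0.51) and Nip7 (-0.49) for E13.5 minus E11.5, and Heatr1 (0.23) for E13.5 minus E9.5. The cause was not tested. Of the other values of the 28 genes, single arrays left out aside, 865 kept their direction and their side of the threshold, 36 lost their call and 5 gained one.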
